A study of Mus musculus with 6 samples.

Results

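The cytosolic ribosomal proteins are the protein parts of the ribosomes that translate nuclear-encoded mRNA. Their genes were taken from the array annotation by symbol: names made of Rpl, Rps or Rplp and a number, with Rpsa added and pseudogenes and l-suffixed paralogues left out, each measured by at least 1 probe set annotated to that gene alone. This gave 57 genes, 35 of the large subunit and 22 of the small subunit, among 22180 genes with such a probe set. They were read by 98 probe sets. Where a gene had several, the brightest by mean over the 6 arrays was taken.

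The study measured RNA of LSK cells on 6 Affymetrix MoGene ST arrays. LSK cells are the bone marrow fraction that lacks lineage markers and carries Sca1 and cKit, and it holds the haematopoietic stem cells and early multipotent progenitors. Tifab encodes a protein that restrains TRAF6, an adaptor of Toll-like receptor signalling, and lies in a region deleted in some myelodysplastic syndromes. The 3 wild-type arrays came from mice that had received Tifab+/+ marrow, and the 3 knockout arrays from mice that had received Tifab-/- marrow, with 3 mice labelled per group. Both groups shared the transplant: the labels describe lethal irradiation of Boy/J recipients with 7.0 Gy and then 4.75 Gy, 3 hours apart, and give an age or time of 3 months whose reference point is not clear. The labels do not say whether donor-derived cells were selected in the sort, how the Tifab-/- allele was made, or whether each array held 1 mouse. If it did not, the p-values measure only the spread between these samples.

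All values are deposited log2 probe set signals, and every difference is knockout minus wild type on that log2 scale. The array medians over all genes were 4.40, 4.40 and 4.38 in wild-type replicates 1 to 3. In knockout replicates 1 to 3 they were 4.43, 4.45 and 4.47, each above every wild-type array. Over all probe sets the medians were 4.10, 4.08 and 4.05 against 4.09, 4.08 and 4.09, and the groups overlapped. The mean correlation of each array with the others lay between 0.976 and 0.982, lowest for wild-type replicate 1. The targeted gene did not check the labels. Tifab signal in wild-type replicates 1 to 3 was 4.99, 5.37 and 5.53, and in knockout replicates 1 to 3 it was 5.21, 5.12 and 5.26, so the groups overlapped (difference -0.10, limma adjusted p = 0.885). The labels do not say whether the deletion covers this probe set, so every direction below rests on the labels. Values below are given in the order of replicates 1, 2 and 3. Of 12 LSK markers, 10 were measured. Kit, the stem cell factor receptor, lay between 9.41 and 9.69, and Cd34, a progenitor surface protein, between 10.32 and 10.66. The mean over the 10 markers was 7.83 to 7.90 in the wild-type arrays and 7.85 to 7.92 in the knockout arrays.

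Each ribosome holds 1 copy of nearly every one of these proteins, so cells make them in step, and a shortage of a single protein stalls the assembly of its subunit. Unassembled Rpl5 and Rpl11, bound to the 5S rRNA, hold back MDM2 and so raise p53. Loss of 1 copy of some ribosomal protein genes causes Diamond-Blackfan anaemia, and haematopoietic stem cells are known for a low and tightly held rate of protein synthesis. The mRNAs of most ribosomal proteins begin with a C followed by an unbroken run of pyrimidines, the 5′ terminal oligopyrimidine tract, through which mTOR and LARP1 govern their translation. Array signals report RNA levels and not that translational control.

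The promoters are shown first because the start sequence, where present, can be read there. RefSeq promoters (GRCm38.p6) were matched for 45 of the 57 genes, with 52 promoters in all. Of the 11 genes with an unadjusted p under 0.05 described below, 8 were in the table. Printed are 35 bases before and 15 bases from the annotated start for 3 of these genes with the tract and 3 without, and capitals mark the tract, a C within 5 bases of the start followed by at least 4 pyrimidines.
Rpl15 (chr14:18270972-18271021, minus strand): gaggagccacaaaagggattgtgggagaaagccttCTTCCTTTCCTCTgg
Rplp2 (chr7:141447616-141447665, plus strand): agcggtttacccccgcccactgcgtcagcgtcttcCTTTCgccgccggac
Rps24 (chr14:24490643-24490692, plus strand): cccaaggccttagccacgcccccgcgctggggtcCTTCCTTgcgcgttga
Rps13 (chr7:116334176-116334225, minus strand): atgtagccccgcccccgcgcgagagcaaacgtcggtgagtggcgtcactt
Rps3a1 (chr3:86142654-86142703, minus strand): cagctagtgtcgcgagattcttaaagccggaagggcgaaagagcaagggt
Rpl9 (chr5:65391417-65391466, minus strand): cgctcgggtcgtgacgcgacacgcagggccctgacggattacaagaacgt
In Rpl15 and Rplp2 the tract began exactly at the annotated start, with 12 and 4 pyrimidines after the C. In Rps24 it began 1 base earlier.

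A tract that began exactly at the start was present in 10 of the 52 promoters (19.2%), against 2.51% of all 32851 promoters in the table. Within 5 bases of the start the shares were 40.4% and 18.4%. Over the window of 250 bases before and 50 after the start, searched on both strands, the ETS-family core CCGGAAG was in 21 of the 52 promoters (40.4%) and in 8.86% of all promoters. The GC box GGGCGG was in 51.9% against 35.7%, and the TATA box TATAAA in 7.69% against 13.62%. CTCTTTCC, another pyrimidine-rich element, was in 11.5% against 3.12%, and the YY1 core AAGATGGC in 3.85% against 2.75%. These are matches of letters, and a missing match says only that the letters are not in that window. In the arrays, 16 of 19 genes with the tract had higher knockout means (median difference 0.10), as had 20 of 26 genes without it (median 0.08), and these groups of genes were not tested against each other.

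No gene of the set passed the test. With limma, 0 of 57 had an adjusted p under 0.05, and the percentage over all genes was 0% as well. The lowest adjusted p in the set was 0.297, for Rps13 and Rpl7. Knockout means were higher for 41 of the 57 genes and lower for 16, with a median difference of 0.07. Over all genes the split was 11092 higher to 11088 lower, with a median of 0.00. At an unadjusted p under 0.05, 11 of the 57 (19.3%) were higher, against 4.74% of all genes, and 0 were lower, against 5.51% of all genes. In 15 genes (26.3%) every knockout array lay above every wild-type array, against 7.75% of all genes, and in 1 gene, Rpl30, every knockout array lay below, against 8.37% of all genes.

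**Figure D1:**
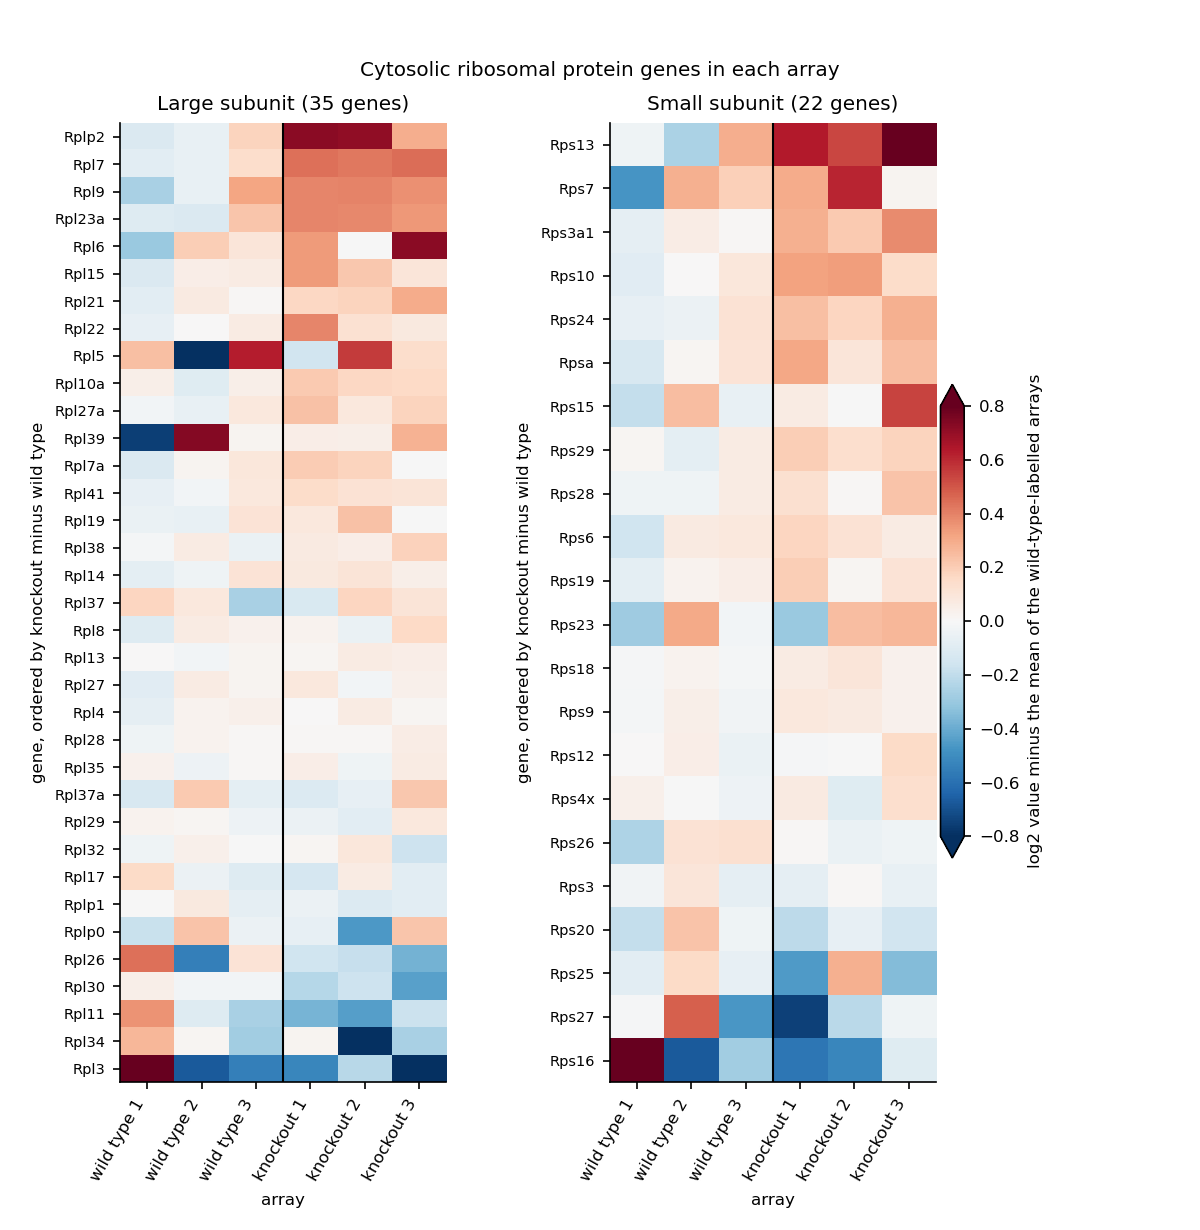
Heat map of the 35 large and 22 small subunit genes (rows, ordered by difference) in the 6 arrays (columns). Colour is the log2 value minus the mean of the 3 wild-type arrays, capped at 0.8 either way. The knockout columns are warm in the upper rows of both panels, and wild-type replicate 1 alone carries the dark red cells of Rpl3 and Rps16 at the bottom.

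The pattern was set beside the brightness of the signals. Of the 57 genes, 38 were in the brightest 10% of all genes, where the median difference over the other 2180 genes was 0.05, 59.7% of them had higher knockout means and 8.58% were higher at an unadjusted p under 0.05. Among those 38 genes, 29 were higher (median 0.06) and 10 were higher at that p (26.3%). Of the 19 dimmer genes, 12 were higher (median 0.13) and 1 was higher at that p (5.26%). The share over all genes was 4.74%, so the dimmer genes were close to it. The SD within groups had a median of 0.08 in the 38 bright genes and 0.25 in the 19 dimmer ones. The part of that spread in these counts was not tested. After cyclic loess normalization, which removes differences that follow brightness, 25 of the 57 genes were higher and 32 lower, with a median of -0.01. In that setting 6 were higher at an unadjusted p under 0.05 (10.5%, against 4.66% of all genes): Rps13, Rplp2, Rpl7, Rpl9, Rpl23a and Rps3a1. Under it 16 genes turned from higher to lower and 0 turned the other way. The part of brightness in the differences of single genes was not tested.

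**Figure D2:**
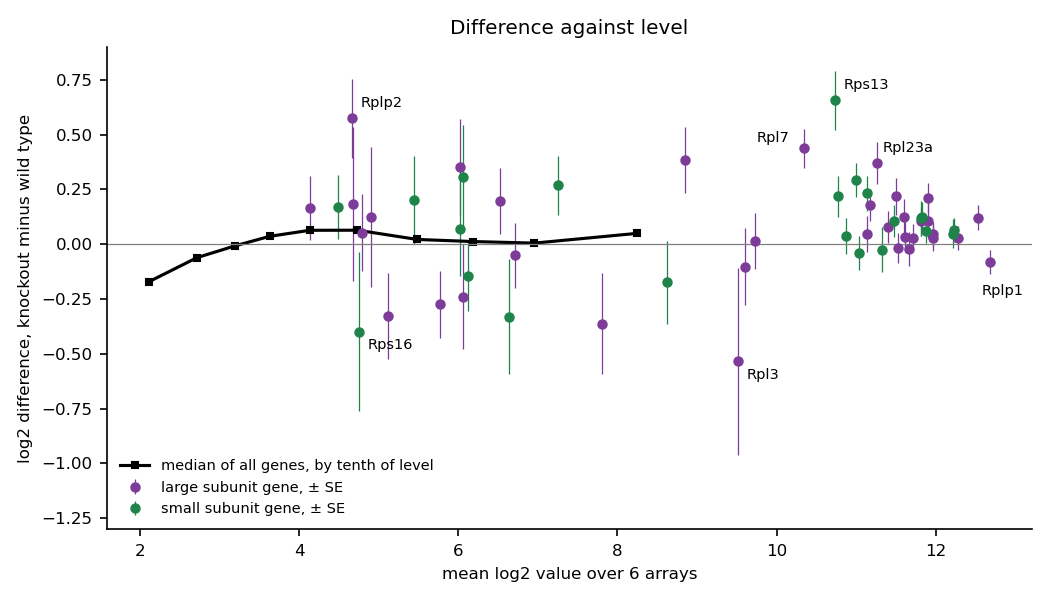
Log2 difference (knockout minus wild type, ± SE from limma) against the mean log2 value over 6 arrays for each gene, coloured by subunit; the black line joins the medians of all 22180 genes in 10 equal bins of level. The line runs from -0.17 in the dimmest bin to 0.06 in the middle bins, 0.01 in the ninth and 0.05 in the brightest, and Rps13, Rpl7 and Rpl23a, brighter than its last point, lie above that value.

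The subunits were set against each other array by array. The mean over the 35 large-subunit genes was 9.31, 9.28 and 9.33 in the wild-type arrays and 9.38, 9.36 and 9.37 in the knockout arrays. For the 22 small-subunit genes it was 9.16, 9.27 and 9.22 against 9.25, 9.31 and 9.35. The large-subunit means of the groups did not overlap, whereas the small-subunit means did. Large minus small was 0.15, 0.02 and 0.11 in the wild-type arrays and 0.13, 0.05 and 0.03 in the knockout arrays. The group means of that quantity, 0.09 ± 0.07 (SD, n = 3) and 0.07 ± 0.06 (SD, n = 3), differed by -0.02, less than either SD. It changed sign when wild-type replicate 1 (0.0069) or knockout replicate 3 (0.00017) was left out. By subunit, 25 of 35 large-subunit genes were higher (median 0.05), with 7 at an unadjusted p under 0.05, and 16 of 22 small-subunit genes were higher (median 0.09), with 4 at that p. These were 20.0% and 18.2% of the genes, against 4.74% of all genes. In limma without its intensity trend they were 4 of 35 (11.4%) and 1 of 22 (4.55%), against 4.77% of all genes. After cyclic loess 14 of 35 and 11 of 22 were higher, with 4 (11.4%) and 2 (9.09%) at that p, against 4.66% of all genes. In that setting 1 large-subunit gene, Rplp1, was lower at that p (2.86%) and 0 small-subunit genes, against 4.48% of all genes.

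**Figure D3:**
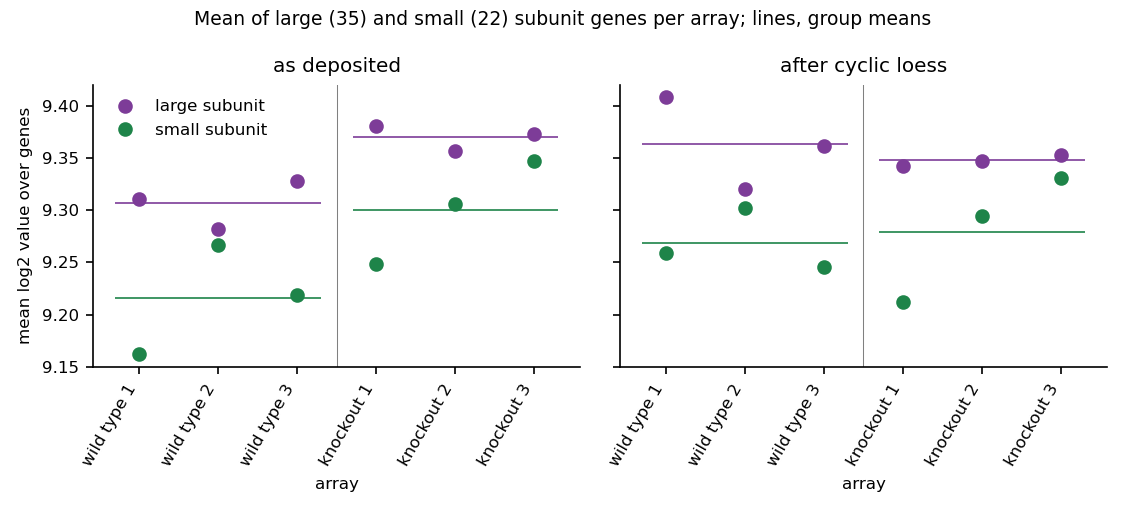
Mean log2 value over the large-subunit and small-subunit genes in each array, as deposited (left) and after cyclic loess normalization (right); lines are group means. As deposited the 3 knockout arrays have the higher large-subunit means (9.36 to 9.38 against 9.28 to 9.33), and after cyclic loess they do not stand above the wild-type arrays.

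Rps13, a small-subunit protein that binds the central part of the 18S rRNA, differed most among small-subunit genes. Its signal was 10.37, 10.15 and 10.70 in the wild-type arrays and 11.04, 10.94 and 11.21 in the knockout arrays. All knockout values lay above all wild-type values, by a mean of 0.66 ± 0.13 (SE), a 1.58-fold ratio (adjusted p = 0.297). Leaving out any 1 array gave differences between 0.53 and 0.80. Rps3a1, which lies near the mRNA exit where initiation factor eIF3 docks, read 10.78, 10.91 and 10.86 in wild type and 11.14, 11.06 and 11.23 in knockout, a difference of 0.29 ± 0.08 (SE, adjusted p = 0.342). Its groups were apart on this probe set. A second, dim Rps3a1 probe set ran the other way, at 3.91, 3.62 and 3.55 against 3.36, 3.24 and 3.09, and the mean of both turned the gene's difference to -0.08.

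Rps24, needed to mature the 18S rRNA and mutated in Diamond-Blackfan anaemia, read 10.95, 10.97 and 11.13 in the wild-type arrays and 11.26, 11.19 and 11.31 in the knockout arrays. The groups did not overlap (difference 0.23 ± 0.08 SE, adjusted p = 0.385). Its second probe set read 10.30, 10.16 and 10.26 against 10.74, 10.59 and 10.83, a difference of 0.48, and the remaining one differed by 0.01. Rpsa, also known as the laminin receptor, sits on the mRNA exit side of the small subunit. It read 10.53, 10.68 and 10.77 in wild type and 10.97, 10.76 and 10.91 in knockout. Knockout replicate 2 overlapped wild-type replicate 3, and the difference was 0.22 ± 0.09 (SE, adjusted p = 0.475). Of the other genes listed for the mRNA exit region, Rps28 differed by 0.12 and Rps26 by -0.02, with overlapping groups in both.

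Among large-subunit genes, Rpl7, which binds 28S rRNA next to the 5S particle, had the lowest p together with Rps13. The signal was 10.04, 10.06 and 10.27 in wild type and 10.56, 10.55 and 10.57 in knockout, so the knockout arrays lay close together and above all wild-type arrays. The difference was 0.44 ± 0.09 (SE, adjusted p = 0.297). A dim second Rpl7 probe set differed by -0.24 with overlapping groups, and the mean of both gave 0.10. Rpl23a, at the mouth of the exit tunnel where nascent-chain factors dock, read 10.97, 10.96 and 11.29 against 11.46, 11.45 and 11.42. The groups did not overlap, and wild-type replicate 3 was the nearest to the knockout arrays (difference 0.37 ± 0.10 SE, adjusted p = 0.334). Rpl9, near the factor-binding side of the subunit, read 8.40, 8.61 and 8.98 against 9.06, 9.06 and 9.03. Its groups were apart by less than the spread within wild type, with a difference of 0.39 ± 0.15 (SE, adjusted p = 0.440) that became 0.26 without wild-type replicate 1.

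Rpl15, a core 28S-binding protein also linked to Diamond-Blackfan anaemia, read 11.27, 11.44 and 11.45 in wild type and 11.73, 11.61 and 11.49 in knockout, a difference of 0.22 ± 0.08 (SE, adjusted p = 0.438). Its groups were narrowly apart. Rpl21 read 11.71, 11.86 and 11.80 against 11.96, 11.97 and 12.09, again with no overlap (0.21 ± 0.07 SE, adjusted p = 0.366). A further bright Rpl21 probe set differed by 0.15 and a dim one by -0.04. Rpl10a, the protein of the mobile stalk through which spent tRNA leaves, read 11.13, 10.99 and 11.13 against 11.30, 11.25 and 11.24, and the groups were apart (0.18 ± 0.07 SE, adjusted p = 0.462). The 11 genes with an unadjusted p under 0.05, Rplp2 below included, kept their direction in the 15 alternative settings, except Rps3a1, whose probe sets disagreed. This gives no separate support. The genes were picked by p from the same arrays, and several settings leave the difference as it was. Where groups do not overlap, leaving out 1 array cannot change the sign.

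**Figure D4:**
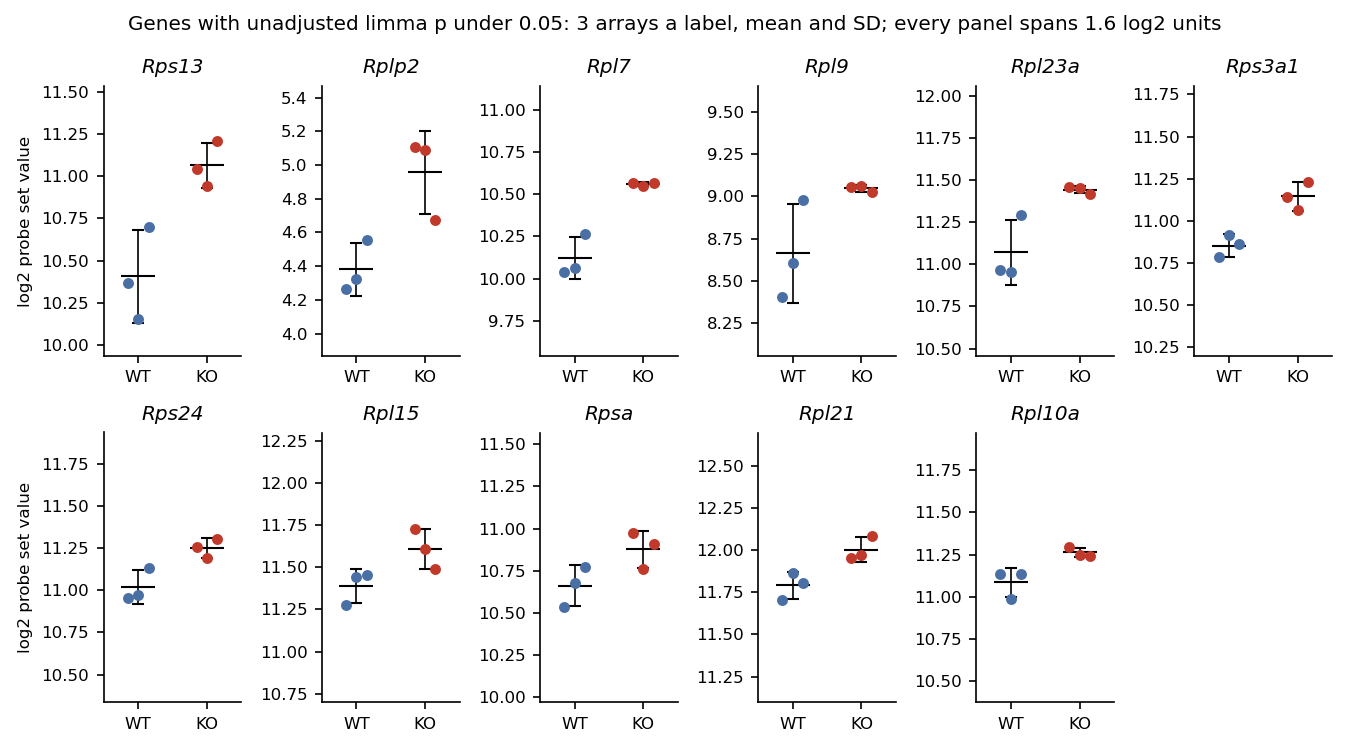
The 11 genes with an unadjusted p under 0.05, ordered by difference. Points are the 3 wild-type (WT) and 3 knockout (KO) arrays on the log2 scale, bars give the mean and SD, and each panel spans 1.6 log2 units. In 10 panels the groups are apart, and in Rpsa 1 knockout array lies below the highest wild-type array.

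The acidic stalk, which recruits the elongation GTPases, gave differences of both signs. Rplp2 read 4.26, 4.32 and 4.56 in wild type and 5.10, 5.09 and 4.67 in knockout, with knockout replicate 3 close to the wild-type arrays (0.57 ± 0.18 SE, adjusted p = 0.362). This was a dim probe set, and the gene also had 1 probe set shared with other symbols. Rplp1, its partner in the stalk dimers, read 12.71, 12.79 and 12.65 against 12.67, 12.61 and 12.63, with a difference of -0.08. Its second, dimmer probe set differed by 0.21. Rplp0, the base of the stalk, read 9.47, 9.88 and 9.61 against 9.59, 9.19 and 9.87 (-0.10), with overlapping groups. After cyclic loess the Rplp1 difference was -0.21, with an unadjusted p of 0.0032.

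Rpl5 and Rpl11, the 5S particle proteins that bind MDM2, were both dim. Rpl5 read 4.83, 3.72 and 5.22 in wild type and 4.44, 5.15 and 4.73 in knockout, a scatter of more than 1 log2 unit between wild-type arrays. Rpl11 read 5.65, 5.19 and 5.03 against 4.92, 4.85 and 5.11. Groups overlapped in both genes, and the differences were 0.18 ± 0.35 (SE) and -0.33 ± 0.20 (SE). Of 19 genes listed for Diamond-Blackfan anaemia, 14 were measured by a probe set of their own. Of these 10 were higher and 4 lower, with a median of 0.11. At an unadjusted p under 0.05, 2 (Rps24 and Rpl15) were higher (14.3%, against 4.74% of all genes). That count was 0 in limma without its intensity trend and 0 after cyclic loess. After cyclic loess the median was 0.00. Rps19, the gene most often mutated in that disease, read 11.35, 11.45 and 11.48 against 11.62, 11.44 and 11.53 (0.11 ± 0.07 SE), and the groups overlapped. Rps10 was apart, at 7.03, 7.12 and 7.21 against 7.44, 7.46 and 7.27 (0.27 ± 0.14 SE, adjusted p = 0.529). Rps7 differed by 0.31 and Rps27 by -0.33, each with overlapping groups.

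Around the nascent-chain exit tunnel 8 of 9 listed genes were measured, of which 6 were higher (median 0.07). At an unadjusted p under 0.05, 1 of the 8, Rpl23a, was higher (12.5%, against 4.74% of all genes). At the mRNA entry and decoding sites 4 of 6 were measured and 3 were higher (median 0.07), with 0 at that p. After cyclic loess 3 of these 8 genes (median -0.04) and 2 of these 4 (median 0.00) were higher. The brightest signals were those of Rplp1 (mean 12.68 over 6 arrays), Rpl41 (12.53), Rpl28 (12.27) and Rps18 (12.23), and the dimmest those of Rpl27a (4.14), Rps29 (4.49), Rplp2 (4.67) and Rpl5 (4.68). These signals also depend on each probe set's binding and do not rank the abundance of the mRNAs. Rpl41, the shortest of the proteins, read 12.40, 12.45 and 12.55 against 12.61, 12.58 and 12.57, with no overlap and a difference of 0.12. Rps18 differed by 0.07 and Rps29 by 0.17, both with groups apart, and Rpl28 differed by 0.03 and Rpl27a by 0.17 with overlap.

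The largest negative difference of each subunit rested on 1 array. Rpl3, which lines the peptidyl transferase centre, read 11.01, 9.11 and 9.24 in wild type and 9.27, 9.57 and 8.92 in knockout, and only wild-type replicate 1 was high. The difference of -0.53 ± 0.43 (SE, adjusted p = 0.688) became 0.08 without that array, and the other Rpl3 probe sets differed by 0.11 and 0.23. Rps16, whose tail reaches the tRNA in the decoding centre, was also high in that array alone. It read 5.91, 4.28 and 4.68 against 4.38, 4.44 and 4.86, and its difference of -0.40 ± 0.36 (SE) became 0.08 without wild-type replicate 1. Rpl30, named because it was the single gene with knockout values all below wild type, read 5.96, 5.89 and 5.89 against 5.69, 5.75 and 5.48 (-0.28 ± 0.15 SE, adjusted p = 0.557). Over all 57 genes, the lowest of the 6 values fell in wild-type replicate 1 for 25 genes and in knockout replicate 3 for 3, and the highest in those arrays for 8 and 16. The sign of 18 genes changed when 1 array was left out, and 39 genes (31 higher, 8 lower) held theirs.

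Probe sets of the same gene did not always run together. Beyond the standing probe sets, 34 others in 24 genes had values of their own: 21 were higher in knockout and 13 lower (median 0.09), and 14 differed in sign from the standing probe set of their gene. Among the 18 of these with a mean signal of at least 7.5, 14 had the same sign. All 5 Rpl41 probe sets were higher, by 0.09 to 0.41. The second Rpl29 probe set, named after its values were seen, read 9.63, 9.18 and 8.94 against 8.38, 8.26 and 8.81, a difference of -0.77 with no overlap, while the standing one differed by -0.02. Ribosomal protein genes have many processed pseudogenes, and signal from such near-identical copies cannot be told apart here: 20 of the 57 genes also had a probe set shared with other symbols.

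**Figure D5:**
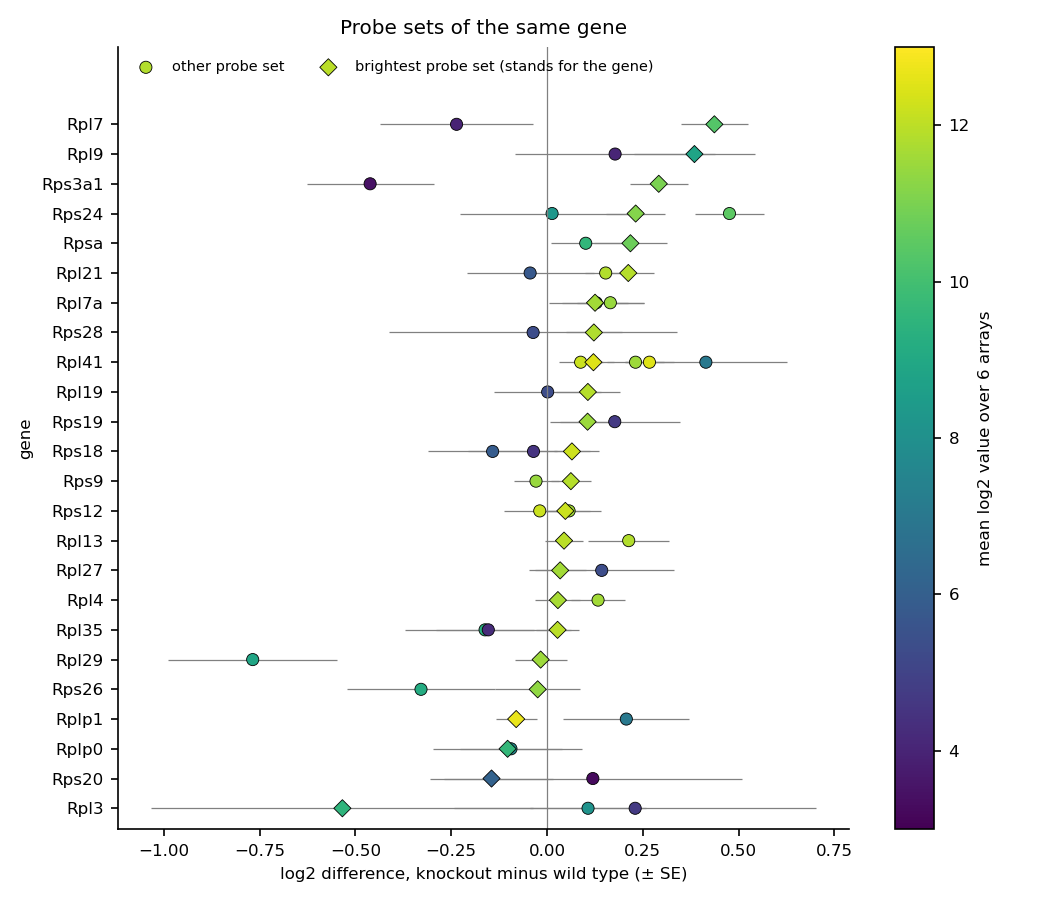
Log2 difference (± SE) of each probe set in the 24 genes whose probe sets have different values; diamonds stand for the gene, circles are its other probe sets, and colour is the mean log2 value over 6 arrays. The Rpl41 points are all above 0, and Rpl7, Rps3a1 and Rpl3 have points on both sides of 0.

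A further 12 genes of the family had only probe sets shared with other symbols and were not among the 57. In these 6 were higher and 6 lower (median -0.04). The examples given here were chosen after their values were seen. Rpl35a read 11.88, 11.93 and 12.06 in wild type and 12.32, 12.13 and 12.24 in knockout (0.27 ± 0.08 SE). Rpl10, at the tRNA-binding face of the large subunit, differed by 0.26 ± 0.08 (SE) and Rpl23 by 0.21 ± 0.06 (SE), both with groups apart. Rps21 read 11.97, 12.02 and 11.88 against 11.81, 11.80 and 11.74 and was apart the other way (-0.18 ± 0.06 SE), as was Rpl36 (-0.13 ± 0.05 SE). All 3 small-subunit genes of this kind, Rps2, Rps15a and Rps21, had lower knockout means.

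The l-suffixed paralogues and ribosomal fusion genes held the clearest single value around the set. Rpl22l1, the paralogue of Rpl22, read 5.25, 5.13 and 4.82 in wild type and 4.34, 4.24 and 4.39 in knockout. The groups did not overlap, and the difference was -0.74 ± 0.17 (SE, adjusted p = 0.297), rank 104 among all genes by p. Rpl22, whose protein is known to repress Rpl22l1, read 6.36, 6.43 and 6.49 against 6.82, 6.55 and 6.51, apart by a narrow margin (0.20 ± 0.15 SE, adjusted p = 0.671). Without any 1 array the Rpl22l1 difference stayed between -0.87 and -0.65, and after cyclic loess it was -0.78. The 8 measured genes of this list split 4 higher and 4 lower. Rps27l differed by -0.12, Rpl7l1 by 0.18 and Fau, which encodes a small-subunit protein fused to a ubiquitin-like one, by 0.04, all with overlapping groups.

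Genes that build and feed the ribosome were counted from lists. Of 15 genes of RNA polymerase I and its initiation factors, which make the large rRNA precursor, 12 were higher (median 0.13). At an unadjusted p under 0.05, 1 was higher (6.67%, against 4.74% of all genes). Polr1d, a subunit shared with RNA polymerase III, read 8.10, 8.24 and 8.41 against 8.49, 8.53 and 8.60 (0.29 ± 0.13 SE, adjusted p = 0.479), and its groups were apart. Taf1a differed by 0.46, Twistnb by 0.30 and Ubtf by 0.21. The median of this list was 0.10 after cyclic loess, with 11 of 15 higher.

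Of 69 ribosome assembly factors, 37 were higher and 32 lower (median 0.01). An unadjusted p under 0.05 was reached by 3 of the higher genes (4.35% of the list) and 4 of the lower (5.80%). Over all genes these shares were 4.74% and 5.51%, so the list was close to all genes. Nmd3, the adaptor that exports the large subunit from the nucleus, read 9.13, 9.34 and 8.84 in wild type and 8.41, 8.52 and 8.83 in knockout (-0.52 ± 0.16 SE, adjusted p = 0.362). Eif6, which keeps the new large subunit from joining the small one, read 7.92, 7.69 and 7.97 against 7.35, 6.96 and 7.61 (-0.56 ± 0.18 SE, adjusted p = 0.383). Groups were apart in both, narrowly for Nmd3. Ddx21, a nucleolar helicase, differed by -0.37 and Mphosph10, of the small-subunit processome, by 0.53, both with groups apart.

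Among 34 translation factors, 24 were higher (median 0.07). An unadjusted p under 0.05 was reached by 4 of the higher genes (11.8% of the list) and 1 of the lower (2.94%). Over all genes these shares were 4.74% and 5.51%. Eif4a2, a helicase of the cap-binding complex, read 10.54, 10.51 and 10.53 against 11.10, 10.69 and 11.16 (0.46 ± 0.12 SE, adjusted p = 0.334). On this probe set the knockout arrays all lay above the tightly placed wild-type arrays. With probe sets averaged per gene the largest difference in the list was 0.35, so the Eif4a2 value depended on the probe set taken. Eif4h, a cofactor of that helicase family, read 9.29, 9.43 and 9.25 against 8.96, 9.01 and 9.02 (-0.32 ± 0.10 SE, adjusted p = 0.364), with no overlap. The eIF3 subunits Eif3k and Eif3e differed by 0.34 and 0.29. After cyclic loess 16 of the 34 were higher (median -0.01).

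Of 15 regulators of ribosome production, 11 were higher (median 0.06). Mycn, a MYC-family activator of ribosomal genes, read 4.99, 4.94 and 5.00 against 5.40, 5.59 and 5.38, with groups apart (0.48 ± 0.15 SE, adjusted p = 0.362). Myc itself read 8.50, 8.87 and 8.87 against 8.90, 8.98 and 9.10, apart by a small margin (0.25 ± 0.14 SE, adjusted p = 0.554). Mtor differed by 0.23 and Maf1, a repressor of RNA polymerase III, by -0.25, each with overlapping groups. The mitochondrial ribosomal proteins, which form a separate ribosome, were set beside the cytosolic ones without a test of the difference. Of 71 genes 43 were higher, with a median of 0.07 as deposited and 0.05 after cyclic loess, against 0.07 and -0.01 for the cytosolic genes. An unadjusted p under 0.05 was reached by 4 of the higher genes (5.63% of the list) and 0 of the lower. Over all genes these shares were 4.74% and 5.51%. Mrpl38 differed by 0.55, Mrps18c by 0.56, Mrps16 by 0.35 and Mrpl42 by 0.34.

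Other cell types and cell cycling were read from marker lists beside these counts. The mean over 10 neutrophil markers was 7.86 to 8.32 in wild type and 7.80 to 8.15 in knockout, with 2 of 10 higher. Mmp8 differed by -0.85 and Cd177 by -0.42, both with groups apart. Proliferation genes, of which 13 were measured, had means of 8.18 to 8.29 in wild type and 8.27 to 8.34 in knockout, with 8 of 13 higher. Ccna2, the S-phase cyclin, differed by 0.40 and Rrm2, a ribonucleotide reductase subunit, by 0.50. The other 5 of the 13 were lower, by up to -0.25. Groups were apart in 2 higher genes (15.4% of the list) and 1 lower gene (7.69%). Over all genes these shares were 7.75% and 8.37%. At an unadjusted p under 0.05, 2 were higher (15.4%, against 4.74% of all genes) and 0 lower (against 5.51%). With probe sets averaged per gene the largest difference in this list was 0.40, so the Rrm2 value depended on the probe set taken. Means of the erythroid (5.09 to 5.78 against 5.43 to 5.63), B cell (4.90 to 5.59 against 4.91 to 5.41), T cell (4.15 to 4.43 against 4.24 to 4.35) and macrophage markers (4.73 to 4.93 against 4.79 to 4.95) overlapped. Among the 8 macrophage markers 3 had groups apart, in both directions: C1qa differed by 0.52, C1qb by -0.51 and Vcam1 by -0.74. Of the LSK markers, Meis1 differed by 0.39 and Hlf by -0.33, both with groups apart, and Flt3 by -0.24. In sorted bulk cells a shift in the mix of stem cells and progenitors and a change in RNA per cell cannot be told apart, and the part of these lists in the ribosomal values was not tested.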

How the data were processed

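RNA of LSK cells from 3 wild-type-labelled and 3 knockout-labelled samples was amplified, biotin-labelled and hybridised to 1 array each, per the labels' protocols. The authors deposited normalized log2 values for 41345 probe sets. The submitters' processing notes name Affymetrix Expression Console. Its version, the normalization and the background correction are stated by no label or header used here. Values were used as deposited. Of the probe sets, 23521 had 1 gene symbol in the platform annotation, 1814 had several and 16010 were unlisted. The probe set with the highest mean stood for a gene. Differences were fitted over all 22180 genes with limma 3.58.1 in R 4.3.3 (lmFit, eBayes with an intensity trend, two-sided, Benjamini-Hochberg, threshold 0.05). The fit was tested on simulated data with planted differences of 1.5 log2 units, larger than any in the set (at most 0.66, Rps13). It therefore does not show whether differences of the size seen here could be called. The looser count used an unadjusted p under 0.05. With 3 arrays per group, their number limits the precision. Genes were named by rule: an unadjusted p under 0.05, the 4 brightest and 4 dimmest, the stalk, 5S, mRNA exit and (up to 8) Diamond-Blackfan genes, genes whose probe sets disagreed in sign, the extreme differences per subunit, up to 4 genes per other list, and LSK markers. The members and lists were chosen with earlier results of these data known, so lists got no test. Alternatives were other normalizations, model options, probe set rules, a replicate block and leaving out each array. A further small-subunit gene is not reported here. Replicate numbers did not pair the arrays. Plots used matplotlib 3.10.9 in Python 3.11.15.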

Additional observations from a re-analysis of the deposited data

How the results depend on the processing

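No gene of the 57 passed an adjusted p of 0.05 with limma in the deposited values (11 at an unadjusted p under 0.05) or in any of the 15 alternatives. The count of genes higher at an unadjusted p under 0.05 was 11 as deposited (19.3%, against 4.74% of all genes). It was 7 after quantile normalization (12.3%, against 5.37%) and 6 after cyclic loess (10.5%, against 4.66%). Without the intensity trend it was 5 (8.77%, against 4.77%), and with probe sets averaged per gene 7 (12.3%, against 4.67%). When 1 array was left out it was 7 (without knockout replicate 1) to 12 (without wild-type replicate 3). The all-gene shares in those settings were 3.51% and 5.61%. The count of lower genes was 0 as deposited, against 5.51% of all genes. It was 1 after cyclic loess (Rplp1, 1.75%, against 4.48%) and 1 with the mean of probe sets (Rpl29, 1.75%, against 5.54%). With 1 array left out it was 0 to 1, against 3.84% to 6.62% of all genes. The median difference over the 57 genes (0.0715) was 0.0029 after quantile normalization and reversed to -0.0099 after cyclic loess, with 0.0506 to 0.0849 when 1 array was left out. The large-subunit median (0.0527) reversed to -0.0026 and -0.0287 in those normalizations, and was 0.081 with the mean of probe sets and 0.045 to 0.0764 with 1 array left out. The small-subunit median (0.0888) was 0.0172 and 0.0015 in the same normalizations, and 0.0451 with the mean of probe sets, below the large-subunit median in that setting. Large minus small (-0.0218) was 0.0029 with the mean of probe sets and -0.0597 to 0.0069 with 1 array left out. Rps3a1 reversed to -0.0848 with the mean of its probe sets. Beyond what each alternative does by construction, the cause was not tested. With the replicate number as a block, 8 genes were higher at an unadjusted p under 0.05 (14.0%, against 4.23% of all genes). In that setting 0 were lower (against 5.32%), and 0 passed the adjusted threshold. The numbers did not pair the arrays: the correlations of same-numbered deviations were 0.02, -0.03 and -0.09. Of 855 values of single genes under the alternatives, 803 moved by less than 1 SD. Part of this was fixed beforehand: omitting the intensity trend, robust eBayes, the replicate block and removing dim genes leave each gene's difference unchanged. Averaging probe sets changes nothing for genes with 1 probe set. The total therefore does not measure stability. The array number limits what could be called, and the median SD was larger in dim genes.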
